A study of Rattus norvegicus with 6 samples.

Results

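The 10 genes described here, Acta2, Tagln, Des, Vim, Ecm1, Lrat, Reln, Pdgfrb, Cygb and Hgf, are genes by which hepatic stellate cells and the myofibroblasts that derive from them are commonly followed in liver. They were chosen by name, and each was matched by symbol to every probe through the RefSeq accession in the array files. All 10 were found among the 15639 gene symbols that the arrays could be matched to. All 10 were among the 11933 genes tested, on 15 tested probes. Tested probes had passed a filter on background and outlier flags, and probes of these genes that failed it are not counted. Whole-liver RNA came from 6 Sprague-Dawley rats, males of an outbred stock that were 5 weeks old when bought, and each rat gave 1 single-channel Agilent array. The corn oil group (3 rats) was dosed with the vehicle alone, and the CCl4 group (3 rats) with carbon tetrachloride at 100 mg/kg/day. CCl4 is a solvent that liver cytochrome P450 turns into reactive products, and repeated dosing is a standard way to scar a rodent liver. The labels give 9 weeks of dosing in one place and 28 days in another, so the length of exposure is not settled here, and they give no histology. The liver label was borne out by the hepatocyte markers, all 11 of which were measured well above background on all 6 arrays.

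In a healthy liver, stellate cells lie between the hepatocytes and the sinusoidal endothelium and store vitamin A as retinyl esters. After injury they can turn into myofibroblasts, which take on contractile proteins, divide in response to platelet-derived growth factor and lay down collagen. Some of the 10 genes mark the resting cell, some the contractile myofibroblast, and several are also made by other liver cells, such as Vim in macrophages and endothelium, Acta2, Tagln and Des in vascular smooth muscle, and Ecm1 in hepatocytes.

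Set against the vehicle, the CCl4 livers show how far these genes move when a rat is dosed with the toxicant over weeks. The cytoskeletal genes Des and Vim and the stellate cell globin gene Cygb were 1.58- to 1.80-fold higher in CCl4 livers, with no overlap between the groups, and Ecm1 was 1.47-fold lower. The contractile genes Acta2 and Tagln, which are the usual readout of myofibroblasts, had log2 changes of -0.24 and 0.00, and their groups overlapped. None of these differences passed the test over all genes: 0 of the 10 genes rose and 0 fell at an adjusted p below 0.05 (limma with Benjamini-Hochberg adjustment), where 0.637% of all genes tested were called (0.561% higher and 0.0754% lower), and 4 of the 10 had an unadjusted p below 0.05, as did 19.7% of all genes. The groups did not overlap for 5 of the 10 genes, 4 higher and 1 lower in CCl4, against 27.4% of all genes (11.5% higher, 15.9% lower). The median log2 change was 0.03 over the 10 genes and -0.05 over all genes. Because whole liver was measured, fewer cells of a type and less RNA per cell cannot be told apart.

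Promoter sequence is shown for Acta2, the contractile gene by which myofibroblasts are usually recognised, and for Des, Vim and Ecm1, which lay apart between the groups. Each stretch is the 150 bases before the start of the transcript, 5′ to 3′ on the gene's strand, from RefSeq on GRCr8, in which 7 of the 10 genes had an entry. Tagln, Pdgfrb and Cygb had none. Reln, which also lay apart on its probe of highest mean, had an entry and is not printed. The places are chr1:241172504-241172653 (minus strand) for Acta2, chr9:84299476-84299625 (plus strand) for Des, chr17:81577111-81577260 (plus strand) for Vim and chr2:185981607-185981756 (minus strand) for Ecm1. Capitals mark matches, on either strand, to any of the 5 motifs that were searched. These were the CArG-like box of serum response factor, the TATA box, the CAAT box, the GC box bound by Sp1 and the AP-1 site, each spelled out after the sequences.
Acta2: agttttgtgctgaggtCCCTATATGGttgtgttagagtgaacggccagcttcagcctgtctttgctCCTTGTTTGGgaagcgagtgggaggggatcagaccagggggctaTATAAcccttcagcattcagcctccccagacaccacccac
Des: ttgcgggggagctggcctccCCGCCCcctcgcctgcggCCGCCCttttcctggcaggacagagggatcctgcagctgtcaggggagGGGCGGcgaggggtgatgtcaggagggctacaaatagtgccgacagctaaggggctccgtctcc
Vim: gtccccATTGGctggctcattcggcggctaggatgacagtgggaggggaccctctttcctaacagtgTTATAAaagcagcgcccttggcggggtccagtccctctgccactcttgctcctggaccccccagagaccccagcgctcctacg
Ecm1: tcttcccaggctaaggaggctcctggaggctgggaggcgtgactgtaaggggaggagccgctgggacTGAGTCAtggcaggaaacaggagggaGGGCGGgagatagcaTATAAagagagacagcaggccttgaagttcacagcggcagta

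The CArG-like box was taken as a pair of C, then 6 letters of which at least 5 were A or T, then a pair of G. Acta2 held 2 such boxes, 134 to 125 and 84 to 75 bases before the start, and a TATA box, searched as TATAA, 40 to 36 bases before it. Searched over 250 bases before the start, 8.08% of 33469 promoters held a CArG-like box, and of the 7 members in the table only Acta2 and Lrat did, the latter with 1 match 209 to 200 bases before the start. Des held 3 GC boxes, searched as GGGCGG, counting both strands, a motif that 30.5% of promoters held. Among the members not printed, Reln held 4 GC boxes and Lrat 1. Vim held a CAAT box in reverse, searched as CCAAT (in 34% of promoters), and a GC box in reverse beyond the printed stretch. It also held a TATAA match 82 to 78 bases before the start, overlapping its own reverse match at 83 to 79 (in 24% of promoters). That lies farther from the start than the TATAA matches of Acta2 and of Ecm1 (42 to 38). Ecm1 held a TATA box, a GC box and, 83 to 77 bases before the start, an AP-1 site, searched as TGANTCA, a motif found in 6.34% of promoters and in no other of the 7. These matches describe letters in the window, and no binding was measured.

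Acta2 encodes smooth muscle alpha-actin, the filament protein that gives myofibroblasts their contractility. Its level, as log2 signal relative to each array's 75th percentile, was -1.39, -1.14 and -1.32 in the corn oil animals and -1.26, -1.52 and -1.78 in the CCl4 animals. The groups overlapped, because CCl4 replicate 1 lay within the corn oil range while CCl4 replicates 2 and 3 lay below it. The log2 change was -0.24 ± 0.16 (SE, n = 3 arrays per group; adjusted p = 0.438, limma), with a 95% interval from -0.62 to 0.15. Omitting CCl4 replicate 1 gave -0.37, and omitting CCl4 replicate 3 gave -0.11. CCl4 replicates 2 and 3 were on a second slide, so slide and treatment are partly confounded. With slide as a fixed block the change of Acta2 was 0.02, the opposite sign, but that fit, like the first slide alone, has a CCl4 arm of 1 animal, replicate 1. With slide as a random block, which uses all 6 animals, it was -0.25 (adjusted p = 0.399), and under that block all 10 genes kept their sign and 0 were called.

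Tagln encodes transgelin, an actin-binding protein of smooth muscle and myofibroblasts. Its levels were -0.84, -0.98 and -1.09 in corn oil and -0.94, -0.79 and -1.17 in CCl4. The 2 sets of values lay through each other, with the highest and the lowest both from CCl4 animals. The log2 change was 0.00 ± 0.14 (95% interval -0.33 to 0.34, adjusted p = 0.991), so a change beyond 0.34 in either direction lay outside the interval.

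Des encodes desmin, a muscle-type intermediate filament protein that is the classical marker of stellate cells in the rat. Its levels were -2.01, -1.64 and -1.91 in corn oil and -1.01, -0.58 and -1.42 in CCl4. Every CCl4 animal lay above every corn oil animal, and CCl4 replicate 2 was the highest. Des was 1.80-fold higher in CCl4 (log2 change 0.85 ± 0.23, 95% interval 0.30 to 1.40) and did not pass over all genes (adjusted p = 0.129). CCl4 replicate 1 alone, as the fixed slide block reads it, gave 0.84, and the random block gave 0.85 (adjusted p = 0.117).

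Vim encodes vimentin, the intermediate filament protein of mesenchymal cells. Its levels were 0.09, 0.55 and 0.29 in corn oil and 0.98, 0.96 and 0.98 in CCl4. The CCl4 animals were nearly alike and lay above all corn oil animals, which spread more widely (SD 0.01 in CCl4 and 0.23 in corn oil). The gene was 1.58-fold higher (0.66 ± 0.14, 95% interval 0.33 to 0.99, adjusted p = 0.0828). The fixed slide block gave 0.67 and the random block 0.66 (adjusted p = 0.0743).

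**Figure D1:**
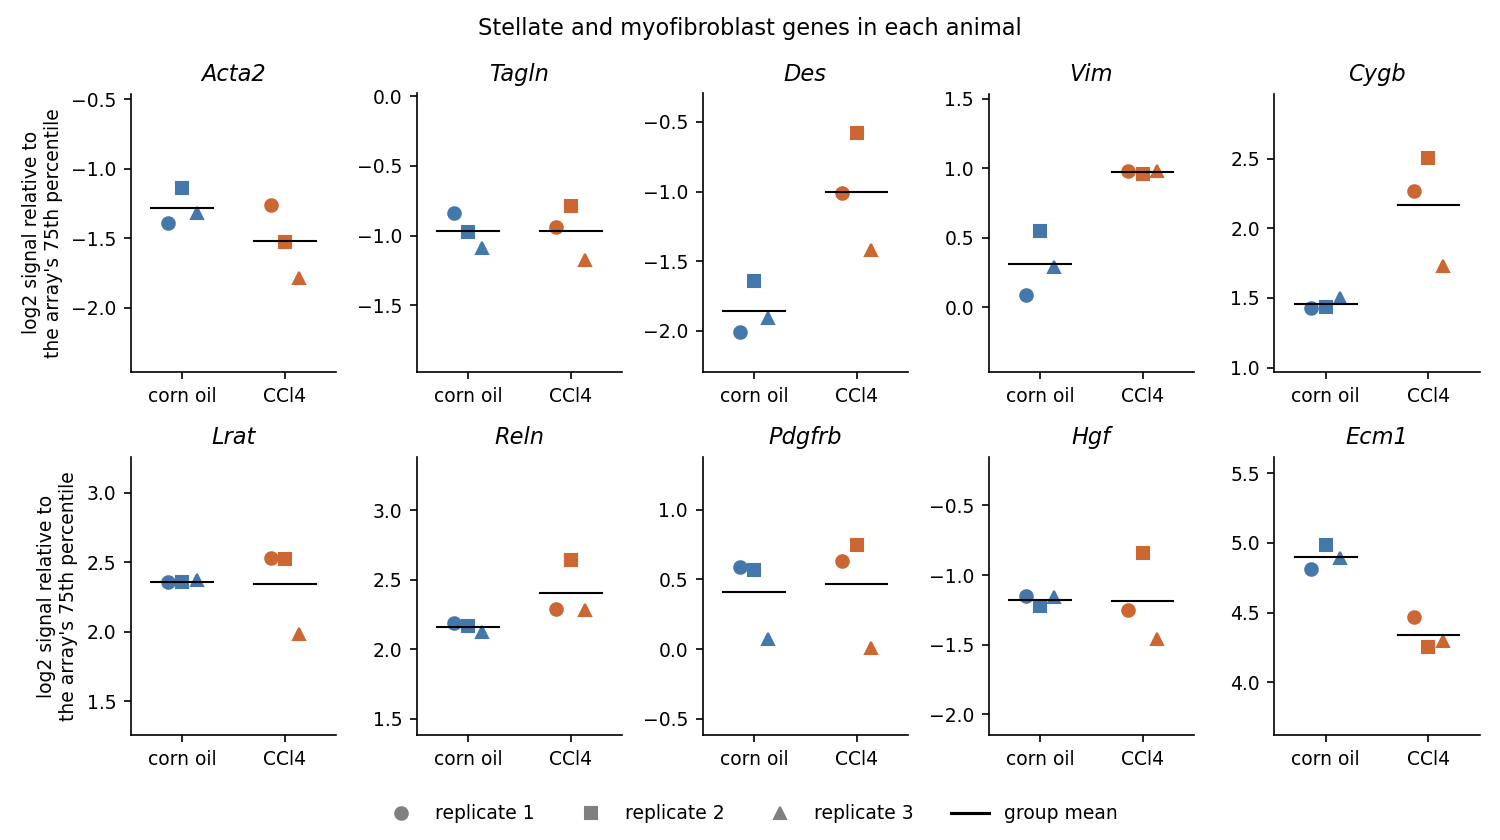
Log2 signal relative to the array's 75th percentile (y axis) for each of the 10 genes in corn oil and CCl4 animals, on the probe with the highest mean, with 1 marker shape per replicate and a bar at the group mean. Every panel spans the same number of log2 units, so distances can be compared between genes, but levels cannot. Des, Vim, Cygb and Reln lie higher and Ecm1 lower in all CCl4 animals, and CCl4 replicate 3 is the lowest CCl4 animal in 8 of the 10 panels.

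Cygb encodes cytoglobin, a haem protein that in liver is found in stellate cells and is used to tell them from portal fibroblasts. Its levels were 1.43, 1.43 and 1.50 in corn oil and 2.27, 2.51 and 1.73 in CCl4. The corn oil animals were nearly alike, and the CCl4 animals were all higher, with replicate 3 the nearest to them. Cygb was 1.64-fold higher (0.71 ± 0.20, 95% interval 0.22 to 1.20, adjusted p = 0.144). It passed once CCl4 replicate 3 was left out (0.93, adjusted p = 0.0388). The fixed slide block gave 0.81 and the random block 0.71 (adjusted p = 0.132).

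Lrat encodes lecithin-retinol acyltransferase, which makes the retinyl esters that resting stellate cells store. On its brighter probe the levels were 2.36, 2.36 and 2.37 in corn oil and 2.53, 2.52 and 1.98 in CCl4. The corn oil animals were nearly alike, CCl4 replicates 1 and 2 lay above them, and CCl4 replicate 3 lay below. The log2 change was small (-0.02 ± 0.17, 95% interval -0.42 to 0.39, adjusted p = 0.969), whereas the SD was 0.32 in CCl4 against 0.01 in corn oil. The dimmer probe gave 0.21 ± 0.18 (adjusted p = 0.588 over all probes), with CCl4 replicate 2 the highest at -2.34. Without CCl4 replicate 3 the brighter probe was at 0.17 (adjusted p = 0.419).

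Reln encodes reelin, a secreted glycoprotein best known from brain layering, which in liver is a product of stellate cells. On the probe with the highest mean, levels were 2.19, 2.17 and 2.12 in corn oil and 2.29, 2.64 and 2.28 in CCl4. The CCl4 animals were all higher, narrowly so in replicates 1 and 3. The log2 change was 0.24 ± 0.13 (95% interval -0.07 to 0.56, adjusted p = 0.345). It was 0.13 under the fixed slide block, 0.25 under the random block (adjusted p = 0.316) and 0.12 without CCl4 replicate 2. The other 2 probes gave 0.13 ± 0.15 and 0.12 ± 0.24, and on both the groups overlapped. Reln therefore lay apart on 1 of its 3 probes.

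Pdgfrb encodes the receptor through which platelet-derived growth factor drives stellate cell division and migration. Its levels were 0.59, 0.57 and 0.07 in corn oil and 0.64, 0.75 and 0.01 in CCl4. In each group 2 animals were high and replicate 3 was low, and the groups overlapped. The change was 0.05 ± 0.24 (95% interval -0.53 to 0.64, adjusted p = 0.918), and the second probe gave 0.03 ± 0.21. The sign turned when corn oil replicate 3 (-0.11), CCl4 replicate 1 (-0.03) or CCl4 replicate 2 (-0.09) was left out.

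Hgf encodes hepatocyte growth factor, which stellate and endothelial cells supply to hepatocytes. Its levels were -1.15, -1.23 and -1.15 in corn oil and -1.25, -0.84 and -1.46 in CCl4. CCl4 replicate 2 lay above and replicates 1 and 3 below all corn oil animals. The mean change was -0.01 ± 0.17 (95% interval -0.41 to 0.40, adjusted p = 0.989), and the SD was 0.31 in CCl4 against 0.04 in corn oil.

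Ecm1 encodes extracellular matrix protein 1, a secreted glycoprotein known in liver for holding transforming growth factor beta in its latent form. Levels on the brighter probe were 4.81, 4.99 and 4.89 in corn oil and 4.47, 4.25 and 4.30 in CCl4. All CCl4 animals lay below all corn oil animals. Ecm1 was 1.47-fold lower (-0.56 ± 0.11, 95% interval -0.82 to -0.29, adjusted p = 0.0755). The dimmer probe gave -0.61 ± 0.13 (adjusted p = 0.113 over all probes), also without overlap, with 1.11, 1.30 and 1.09 in corn oil and 0.68, 0.42 and 0.56 in CCl4. The brighter probe passed under normexp background correction (-0.54, adjusted p = 0.0492). The fixed slide block gave -0.43 and the random block -0.56 (adjusted p = 0.0674).

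The 15 probes had been kept for a signal well above background on at least 3 arrays. All 15 were so on all 6 arrays and none was saturated, so every one of these values is a measured level and not a bound. Probes of these genes that the filter removed are not covered. Of the 15 probes 0 passed over the 40478 probes tested (0.341% of all probes did), and the groups did not overlap on 6, 4 higher and 2 lower (23.4% of all probes, 9.69% higher and 13.7% lower). For the 4 genes with several probes, the changes spanned -0.61 to -0.56 for Ecm1, 0.03 to 0.05 for Pdgfrb, 0.12 to 0.24 for Reln and -0.02 to 0.21 for Lrat. Only the probes of Lrat differed in sign.

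**Figure D2:**
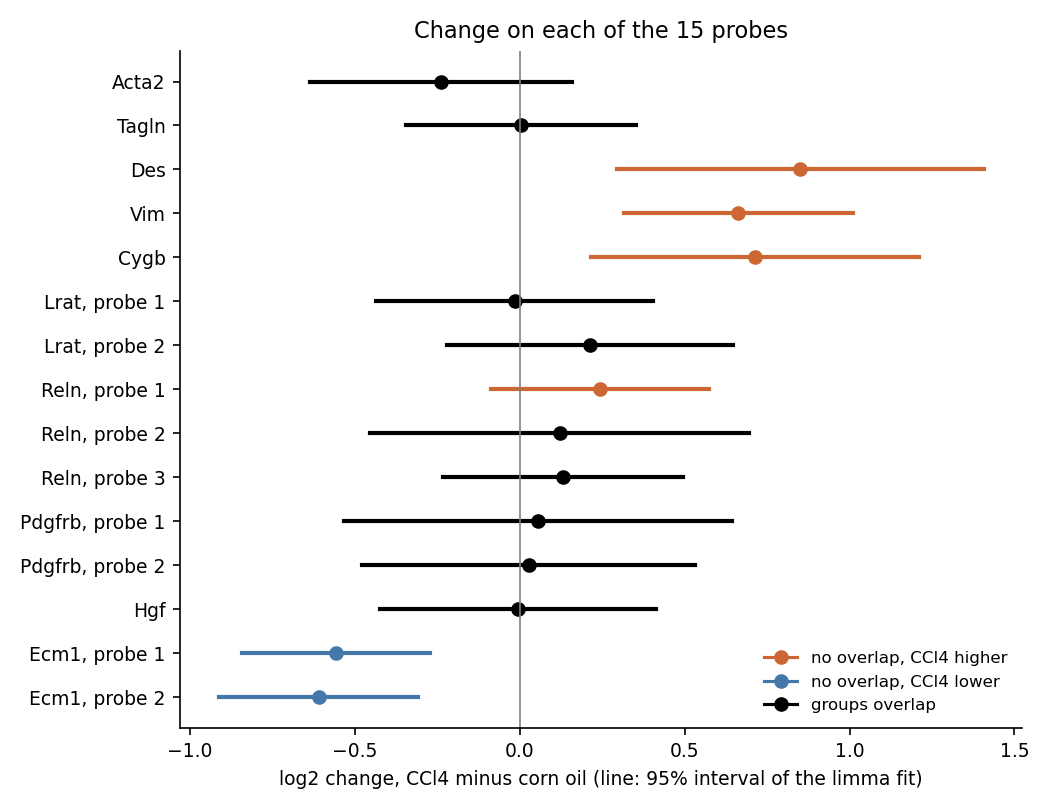
Log2 change, CCl4 minus corn oil (x axis), for each of the 15 probes (y axis; probe 1 has the highest mean), with the 95% interval of the limma fit over all probes as a line. Orange and blue mark probes on which the groups do not overlap. Intervals of Des, Vim, Cygb and both Ecm1 probes lie to one side of 0, before any adjustment for the number of probes tested.

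The CCl4 animals differed among themselves. Set against the corn oil mean, CCl4 replicate 2 was the highest CCl4 animal for 6 of the 10 genes and replicate 1 for 4, while replicate 3 was the lowest for 8. The median change over the 10 genes was 0.15 in replicate 1, 0.34 in replicate 2 and -0.24 in replicate 3. Over the 6 animals Des and Cygb were the most alike of all pairs (Pearson r = 0.96, and 0.87 after each group's mean was removed), followed by Tagln and Pdgfrb (0.93 and 0.94). With the group means removed Des and Cygb were no longer first, and Lrat and Cygb were the most alike (0.945). Acta2 had an r of -0.24 with Des, -0.23 with Cygb, -0.40 with Vim, 0.30 with Tagln and 0.74 with Ecm1. With the group means removed these values were 0.58, 0.59, 0.45, 0.38 and 0.80, so the negative ones turned positive. These are descriptions over 6 points that share 2 groups and 2 slides.

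Because the scaling between arrays cancels in a ratio within an array, each of the other 9 genes was also set against Acta2, a reference chosen after its values were seen. Relative to Acta2, Des was higher in CCl4 by 1.09 ± 0.22 on the log2 scale (SE, n = 3 arrays per group), Cygb by 0.95 ± 0.19 and Vim by 0.90 ± 0.16, and Lrat by 0.22 ± 0.12, all without overlap. Ecm1 was lower by this measure (-0.32 ± 0.11), also without overlap. For each of these 5 the exact permutation test gave p = 0.1 (two-sided), the smallest that 3 arrays against 3 can give, and 0.18 after Benjamini-Hochberg adjustment over the 9 comparisons. Tagln (0.24 ± 0.17), Reln (0.48 ± 0.21), Pdgfrb (0.29 ± 0.22) and Hgf (0.23 ± 0.22) overlapped between the groups. The change of Acta2 itself, -0.24, enters all 9 ratios with its sign turned. Not set against Acta2, the changes of Lrat, Tagln, Hgf and Pdgfrb were -0.02, 0.00, -0.01 and 0.05, all with overlap.

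**Figure D3:**
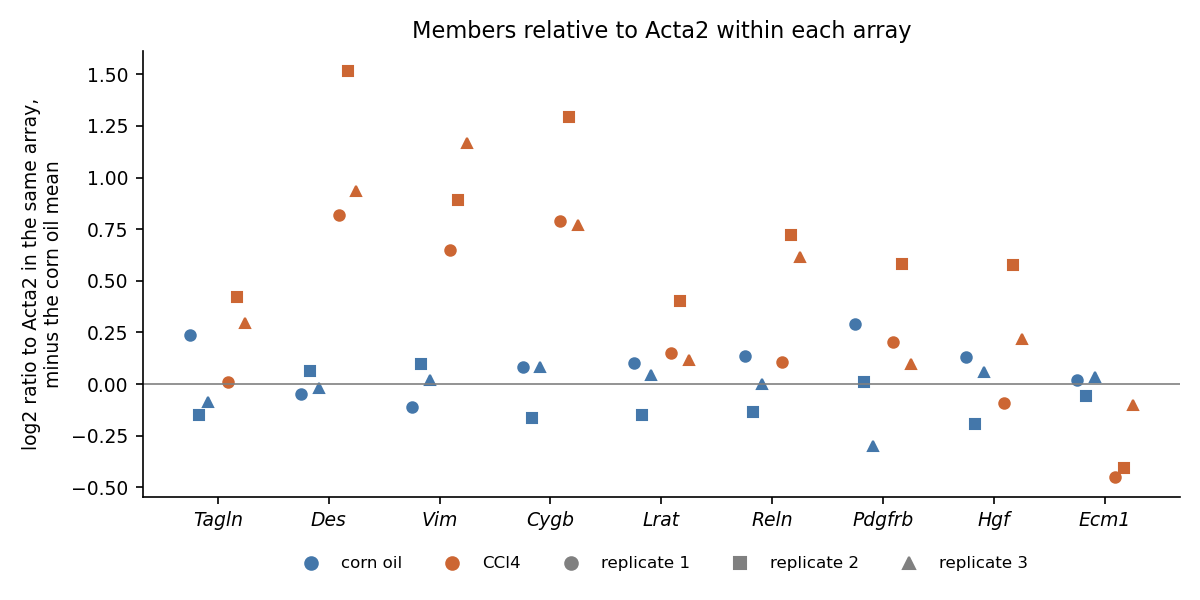
Log2 ratio of each gene to Acta2 within the same array, less the corn oil mean of that ratio (y axis), for 9 genes (x axis), with 1 marker shape per replicate. The CCl4 animals lie at 0.82 to 1.52 for Des, 0.77 to 1.29 for Cygb and 0.65 to 1.17 for Vim, where the corn oil animals lie within 0.17 of 0.

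The genes whose pattern over the 6 animals was most like that of Vim, by Pearson correlation among all genes tested, were Sh3bgrl3 (r = 0.999), the mitotic kinesin gene Kifc1 (0.999) and Fkbp7 (0.998). For Ecm1 they were Akt1s1 (0.998), Tex264 (0.996) and Sgsm1 (0.996). For Acta2 they were Nup43 (0.987), Fzd1 (0.982) and Kbtbd3 (0.980). With 6 animals such values are common: 429 genes had an r above 0.9 with Vim, 395 with Ecm1 and 96 with Acta2.

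Of 21 listed contractile genes and targets of serum response factor 15 were measured, 0 rose and 0 fell, and the groups did not overlap for 2 higher and 4 lower, where 11.5% of all genes were higher and 15.9% lower. The median log2 change was -0.07 (-0.15 to 0.02 over the alternatives), against -0.05 over all genes. The smooth muscle gamma-actin gene Actg2 was at 0.66 ± 0.24 (adjusted p = 0.207), but its 3 probes ranged from -0.86 to 0.66, and their mean gave -0.30 (adjusted p = 0.32). The brightest probe was at 0.40 without CCl4 replicate 3 and 0.37 with slide as a fixed block. Flna, which encodes the actin cross-linker filamin A, was at 0.48 ± 0.11 (adjusted p = 0.0907), or 0.27 under normexp. Of 10 other intermediate filament genes 0 rose and 0 fell, and the median was -0.00. The epithelial keratin gene Krt8 was the highest (0.81 ± 0.15, adjusted p = 0.0724, and 0.0288 under normexp and 0.0499 with a variance trend), and Synm, whose product synemin pairs with desmin and vimentin, was the lowest (-0.66 ± 0.25, adjusted p = 0.223), both without overlap. Synm was at -0.41 without CCl4 replicate 2.

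Of 20 listed genes of retinoid storage and signalling 17 were measured, 0 rose and 0 fell. A positive change was found in 2 of the 17 (42.8% of all genes), and 4 were lower without overlap (15.9% of all genes). Their median was -0.19 (-0.25 to -0.15 over the alternatives), against -0.05 over all genes and -0.24 over the 11 hepatocyte markers. Ttr, among the genes lower without overlap, is in both lists. The part of hepatocytes in the retinoid values was not tested. Rdh10, a retinol dehydrogenase, was at -0.42 ± 0.14 (adjusted p = 0.183), and Dhrs3, a retinal reductase, was at -0.25 ± 0.11 (adjusted p = 0.289), or -0.10 under normexp.

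In the pathways of Pdgfrb, Hgf and Reln no listed gene passed. Of 12 listed PDGF pathway genes 10 were measured, 0 rose and 0 fell, and the median was 0.09, or 0.26 without CCl4 replicate 1. The ligand gene Pdgfa was at 1.02 ± 0.19 without overlap (adjusted p = 0.0724), and its 3 probes gave 0.42 to 2.08. Its adjusted p was 0.0431 under normexp and 0.0244 without CCl4 replicate 3. Pik3r1, a subunit of phosphoinositide 3-kinase, was at 0.29 ± 0.11 (adjusted p = 0.223). All 15 listed HGF and MET pathway genes were measured, 0 rose and 0 fell, and 5 were higher and 4 lower without overlap (11.5% and 15.9% of all genes). Their median was -0.19, or -0.05 with slide as a fixed block and -0.07 without CCl4 replicate 2. Mst1, which encodes an HGF-like protein, was at -1.53 ± 0.64 (adjusted p = 0.257), or -0.75 without CCl4 replicate 3. Of 10 listed reelin pathway genes 7 were measured, 0 rose and 0 fell, with a median of -0.05, or 0.01 without CCl4 replicate 3. The reelin receptor gene Vldlr was at 2.27 ± 0.62 (adjusted p = 0.133). Its probe exceeded background on 1 of the 3 corn oil arrays and on all 3 CCl4 arrays, so the corn oil level is poorly measured, and under normexp the change was 0.42.

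Of 21 listed genes of latent TGF-beta, the pathway in which Ecm1 acts, 17 were measured, and 1 rose and 0 fell, with a median of 0.13. The gene that rose was Ltbp2, which encodes a microfibril protein of the latent TGF-beta binding protein family. It rose 4.22-fold (2.08 ± 0.23, adjusted p = 0.0252), and its 3 probes gave 1.89 to 2.08. Under normexp the change was smaller, 1.33. It passed with slide as a random block (2.08, adjusted p = 0.0227) and not with the fixed block, whose CCl4 arm is 1 animal (2.13, adjusted p = 0.195). With 1 array left out it passed only where that array was corn oil replicate 2 or CCl4 replicate 3. The adjusted p was otherwise 0.0529 to 0.143. The remaining 16 changes lay between -0.35 and 0.39.

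The mean changes of other measured markers of activated stellate cells were all above 0, but single animals were not all higher. Of 18 listed 12 were measured, all 12 had a positive change, and 7 were higher and 0 lower without overlap, although 0 rose and 0 fell over all genes. Over all genes 42.8% had a positive change, and 11.5% were higher and 15.9% lower without overlap. The smallest changes were those of Igfbp3 (0.05 ± 0.21) and the collagen gene Col1a1 (0.16 ± 0.26), named after their values were seen. Both overlapped, and for both CCl4 replicate 3 lay below all corn oil animals. The median of the list was 0.72 (0.61 to 1.04 over the 19 alternatives, the highest with slide as a fixed block), against -0.05 over all genes. Loxl1, a lysyl oxidase that cross-links elastic fibres, was at 1.39 ± 0.49 (adjusted p = 0.205), or 0.88 without CCl4 replicate 2, and Timp1, an inhibitor of matrix metalloproteinases, at 1.22 ± 0.21 (adjusted p = 0.0647, and 0.0267 under normexp, 0.0428 with a variance trend and 0.0498 with the filter on all 6 arrays). Of 14 listed markers of resting stellate cells 13 were measured, 0 rose and 0 fell, 2 were higher and 2 lower without overlap, and the median was 0.11. Over all genes 11.5% were higher and 15.9% lower without overlap. The list's median depended on single animals: omitting corn oil replicate 3 gave -0.11, omitting corn oil replicate 2 gave 0.23, omitting CCl4 replicate 1 gave -0.00, omitting CCl4 replicate 2 gave 0.01 and omitting CCl4 replicate 3 gave 0.26. It was 0.24 with slide as a fixed block. Ednrb, an endothelin receptor gene, was at 1.12 ± 0.32 (adjusted p = 0.147), and Rgs5, a pericyte regulator of G proteins, was at 0.74 ± 0.25 (adjusted p = 0.195, and 0.037 without CCl4 replicate 3). The 2 lower without overlap were Pparg (-0.45 ± 0.21, adjusted p = 0.297) and Angptl6 (-0.34 ± 0.13, adjusted p = 0.223), named after their values were seen. All these lists were drawn up with earlier results of these data known, so their counts are descriptions.

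**Figure D4:**
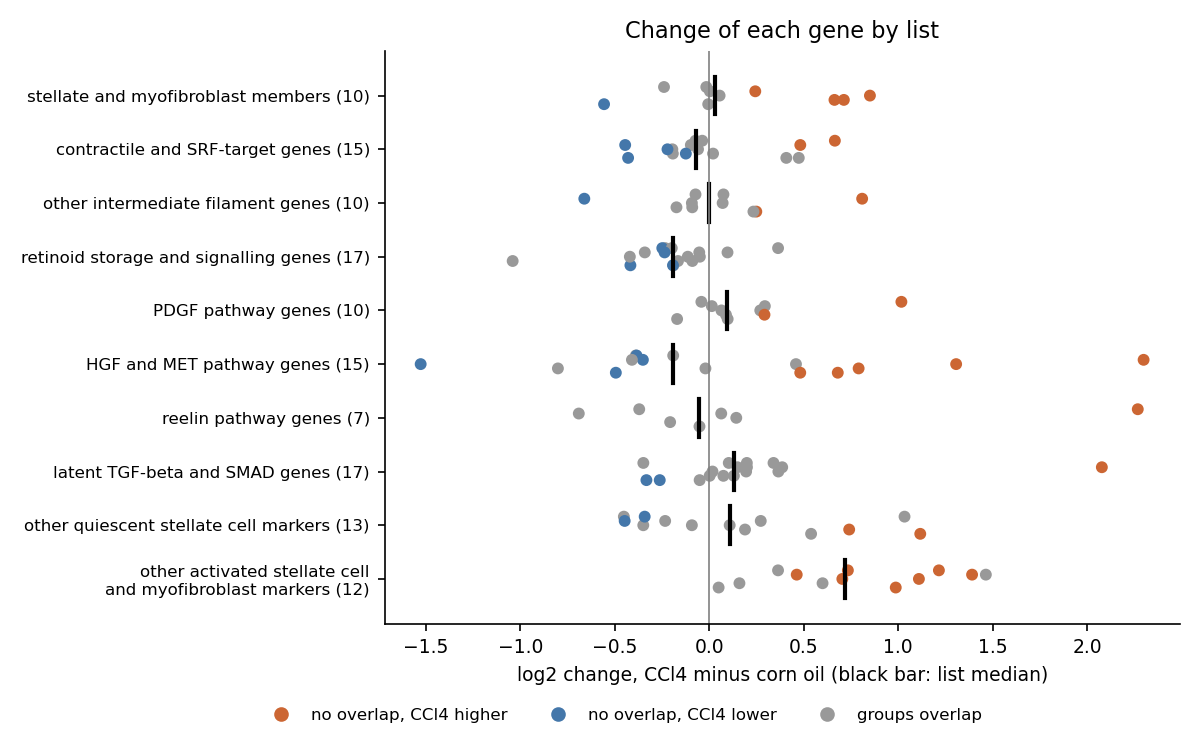
Log2 change, CCl4 minus corn oil (x axis), of every measured gene in the 10 genes and 9 further lists (y axis, number measured in brackets), with the list median as a black bar. Colours mark genes whose groups do not overlap. The 12 other markers of activated stellate cells all lie above 0, with a median of 0.72, whereas the medians of the other lists lie between -0.19 and 0.13.

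Genes of the marker lists with no tested probe, such as Vwf, Stab1 and Stab2 for endothelium or Cnn1 and Lmod1 for smooth muscle, give no value here. Markers of other cells that make some of these proteins were read beside them. Of 4 measured markers of vascular smooth muscle, a cell type that also makes Acta2, Tagln and Des, 0 rose and 0 fell, with a median of -0.11, and their summed signal, in units of the array's 75th percentile, was 16.9 to 17.9 in corn oil and 15.4 to 19.3 in CCl4. Of 15 macrophage markers, cells that also make Vim, 3 rose and 0 fell: Trem2 (4.33 ± 0.32, adjusted p = 0.0106), Gpnmb (3.04 ± 0.42, adjusted p = 0.0462) and Lgals3 (2.36 ± 0.15, adjusted p = 0.00729). Other markers of that list lay below 0, among them C1qc (-0.60 ± 0.15, adjusted p = 0.11, without overlap), Vsig4 (-0.50 ± 0.21), C1qa (-0.37 ± 0.15) and Clec4f (-0.35 ± 0.14), named after their values were seen. Vsig4, C1qa and Clec4f overlapped between the groups. Itgam (1.99 ± 0.35, adjusted p = 0.0665), Lyz2 (0.96 ± 0.15, adjusted p = 0.0563) and Marco (0.91 ± 0.24, adjusted p = 0.129) were higher without overlap. They too were named after their values were seen. Of the 15, 6 were higher and 1 lower without overlap (11.5% and 15.9% of all genes). Their median was 0.01, and their summed signal was 195 to 235 in corn oil and 218 to 257 in CCl4. Of 7 measured endothelial markers 0 rose and 0 fell (median 0.10, summed signal 54.7 to 66.1 in corn oil and 47.0 to 58.9 in CCl4). Of 11 hepatocyte markers, cells that make Ecm1, 0 rose and 0 fell, 5 were lower without overlap (15.9% of all genes), the median was -0.24, and the summed signal was 4507 to 4857 in corn oil and 3568 to 4280 in CCl4. The 5 measured portal fibroblast and mesothelial markers (median -0.09, summed signal 2.26 to 2.74 and 2.13 to 3.28) and the 5 measured cholangiocyte markers (median 0.01, 1.49 to 1.82 and 1.97 to 2.10) held none that rose or fell. Of 7 measured lymphocyte markers Gzma fell (-1.32 ± 0.14, adjusted p = 0.0252), with a summed signal of 4.36 to 5.84 in corn oil and 4.01 to 4.32 in CCl4. These 4 calls held with slide as a random block (adjusted p 0.00625 to 0.0404) and were lost with the fixed block, whose CCl4 arm is 1 animal (0.115 to 0.239), and without CCl4 replicate 1 or 2 (0.0542 to 0.185). Under normexp the change of Trem2 was 2.74. Leaving out corn oil replicate 1 (0.135), corn oil replicate 3 (0.116) or CCl4 replicate 3 (0.0602) also ended the call of Gpnmb, as did testing without the filter on dim probes (0.0724). Lgals3 was lost without corn oil replicate 3 (0.0526), and Gzma without corn oil replicate 1 (0.0818), 2 (0.0643) or 3 (0.0791). The part of these cells in the values of the 10 genes was not tested.

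The arrays differed little in brightness. On the first slide the processed signal had a 75th percentile of 583 to 598 units. On the second slide it was 676 units for CCl4 replicate 2 and 666 for CCl4 replicate 3. Per array, 61.9% to 67.3% of probes were well above background, and 0 to 4 probes were saturated. Of the 11933 genes tested 76 were called, 67 higher and 9 lower in CCl4.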

How the data were processed

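Liver RNA of 3 corn oil and 3 CCl4 rats was measured on 1-colour Agilent arrays, and groups were taken from the treatment label. The deposited scanner files hold an intensity for every spot, extracted by Agilent Feature Extraction (version 10.7.1.1 per the file headers, and given as 10.7 by the submitters' processing notes) and not scaled between arrays. Other deposited columns used were flags for background, saturation and outliers. The deposited value table holds a ratio, scaled by the authors so that the 75th percentile of each array is 1, as its values show. The array design names the rn4 build, per the file headers.

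Control spots and 26 probes with outlier flags were left out. Log2 processed signal minus the array's 75th percentile was fitted in R 4.3.3 by limma 3.58.1 (lmFit, then eBayes). Tests were two-sided, and p-values were adjusted by Benjamini-Hochberg over every gene, or every probe, tested, with a threshold of 0.05. Probes had to be well above background on at least 3 arrays. A gene was read from its probe of highest mean. Of 61537 probes 28193 matched 1 symbol in RefSeq's GRCr8 gene table. Checked on simulated data for CCl4 against corn oil (11933 genes), the fit found 59.2%, 86.7% and 94.3% of genes given log2 changes of 1, 2 and 3. The number of arrays limits the precision. The members, the lists and the rule for naming genes were chosen with earlier results of these data known. The rule named all 10 members, the called genes of each list or else the 2 largest changes without overlap, and the 3 genes most alike to Acta2, Vim and Ecm1. A gene that this rule names is not reported here. The alternatives covered scaling, background correction, source of values, filter, probe choice, variance model, slide, replicate number and each array left out. Python 3.11.15 with numpy 2.4.6, pandas 2.3.3, scipy 1.17.1 and matplotlib 3.10.9 and statmod 1.5.0 were also used.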

Additional observations from a re-analysis of the deposited data

How the results depend on the processing

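Des, Vim, Cygb, Reln and Ecm1 kept their direction under all 19 alternatives. Their changes were, in that order, 0.64 to 1.06, 0.51 to 0.78, 0.54 to 0.93, 0.12 to 0.31 and -0.62 to -0.43. These are the 5 genes whose groups did not overlap. For them, leaving out 1 array or reading CCl4 replicate 1 alone could not turn the sign. A variance trend leaves the change itself as it was. Such alternatives are therefore no test of direction. Of the 10 genes 0 were called in 17 of the 19 alternatives (limma). The exceptions were normexp, with 1 (Ecm1), and the fit without CCl4 replicate 3, with 1 (Cygb), so single arrays left out gave 0 to 1. Member probes gave 0 calls in all 18 alternatives run on probes. Acta2 turned to 0.0215 with slide as a fixed block and within the first slide. Tagln turned to -0.0151 under quantile normalization, -0.0262 under median scaling and -0.0418 under normexp, and spanned -0.0858 to 0.11 with single arrays left out. Lrat turned to 0.0237 under quantile normalization, 0.0108 under normexp, 0.0984 as a mean of probes, 0.00751 with array weights and 0.17 with slide as a fixed block or within the first slide, and spanned -0.11 to 0.17 with single arrays left out. Hgf turned to 0.0183 with array weights and spanned -0.17 to 0.13 with single arrays left out, and Pdgfrb spanned -0.11 to 0.28. Actg2 turned to -0.30 as a mean of probes, where its probes differ in sign. The probes of Lrat also differ in sign (-0.02 and 0.21). With slide as a fixed block and within the first slide, the CCl4 arm is replicate 1 alone. That animal lay 0.0215 above the corn oil mean for Acta2 and 0.17 above it for Lrat. The cause of the other turns was not tested.

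Over all genes, 76 calls became 214 under normexp, 140 with the filter on all 6 arrays, 156 with a variance trend, 128 with array weights, 4 with slide as a fixed block (105 as a random block) and 0 within the first slide (limma, with 1598 genes at an unadjusted p below 0.05), and 2 to 241 with single arrays left out. Same-numbered animals deviated from their group means with correlations of -0.05, 0.16 and 0.02, and differently numbered animals with -0.18 to 0.15. With 3 animals per group these values show no clear pairing by number and cannot exclude it. With the replicate number as a block the count was 10. Under that block the 10 genes had adjusted p-values of 0.128 or more, and it changed no call among them, but it ended those of Ltbp2 (0.0886), Gpnmb (0.083) and Gzma (0.0886). Gene names from a name column were not run, since the files used here hold none, and normexp used median spot signals. All 15 tested probes were well above background on all 6 arrays. Because the filter had already removed dim probes, this says nothing of probes that were not tested.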
